A study of Solanum lycopersicum with 12 samples.

Results

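The 8 genes described here code for enzymes of vitamin C (ascorbate) and vitamin E (tocopherol) synthesis in tomato fruit. They were taken by gene identifier, and all 8 of 8 were found among the 24215 genes of the deposited table and passed the filter on low values that left 15974 genes for testing. For vitamin C they are the GDP-mannose epimerase genes GME1 and GME2, the GDP-L-galactose phosphorylase genes GGP1 and GGP2, and GalLDH, the L-galactono-lactone dehydrogenase gene (5 genes). For vitamin E they are VTE2 (homogentisate phytyltransferase), VTE1 (tocopherol cyclase) and VTE4 (tocopherol O-methyltransferase), 3 genes. The fruits came from a yellow tomato with the number 19 and a red tomato with the number 20, both Solanum lycopersicum. Sampling took place 40 days after flowering, called color break, or 55 days after it, called maturity, with 3 libraries in each of the 4 groups and 12 in all. No treatment or transgene is named for any group, the fruits are compared as 2 whole lines, and the labels say neither how many fruits or plants a library holds nor whether replicates came from separate plants. The p-values therefore measure only the spread between these libraries, which may be technical.

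Plants make ascorbate mainly from GDP-mannose: the epimerase GME forms GDP-L-galactose, the phosphorylase GGP commits that intermediate to ascorbate and is regarded as the main control point of the route, and the mitochondrial enzyme GalLDH carries out the last step. Tocopherols are made in plastids: VTE2 joins homogentisate to a phytyl tail, VTE1 closes the ring of the tocopherol head, and VTE4 adds a methyl group that turns gamma-tocopherol into alpha-tocopherol, the form with most vitamin E activity. In ripening fruit the phytyl tail comes in good part from chlorophyll that is being broken down. Only transcripts were measured in the table used here, and the amounts of the vitamins were not analysed.

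By the table's own coordinates, whose genome build is not given in the sources used here, GME1 (Solyc01g097340) lies on chromosome 1 from 88113763 to 88117102 on the plus strand and GME2 (Solyc09g082990) on chromosome 9 from 69110733 to 69116279 on the minus strand. GGP1 (Solyc06g073320) lies on chromosome 6 from 45318209 to 45321739 on the plus strand, and GGP2 (Solyc02g091510) on chromosome 2 from 53420304 to 53425653 on the minus strand. GalLDH (Solyc10g079470) lies on chromosome 10 from 61144782 to 61152692 on the minus strand. Among the vitamin E genes, VTE2 (Solyc07g017770) spans 7969352 to 7985818 on the plus strand of chromosome 7. VTE1 (Solyc08g068570) and VTE4 (Solyc08g076360) are both on chromosome 8, VTE1 from 57770781 to 57779173 on the plus strand and VTE4 from 60451841 to 60456349 on the minus strand. The table annotates 7 of the 8 with the enzyme named above, and GGP2 has no description but carries the same enzyme number as GGP1. Each spans a whole gene, exons and introns together.

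Counted fragments came to between 50963462 and 60854667 per library. Replicate 1 of red at maturity stood apart from its group: the chi-square statistic per degree of freedom between its counts and those of replicates 2 and 3 was 34.9 and 33.06, against 12.42 between those other libraries and 5.37 to 8.66 within the other groups. Every pair of libraries within a group thus differed by more than sampling noise, and none was treated as a repeat deposit. Without that library all 40 log2 fold changes of the 8 genes kept their direction and their side of the call threshold. The fruit markers PG2A, RIN, E8 and PSY1, which stand for ripening flesh, summed to between 11435 and 12389 FPKM in the first 3 groups (yellow and red at color break, yellow at maturity) but to between 6926 and 7378 in red at maturity. The markers of that set did not move together: at maturity PG2A had a mean of 5607 FPKM in yellow and 591.2 in red and E8 4901 and 3478, whereas PSY1 stood at 1611 and 2779 and RIN at 239.4 and 274.1. By edgeR the log2 fold change there was -3.38 for PG2A (adjusted p 5.39e-15), -0.63 for E8 (adjusted p 2e-10), 0.65 for PSY1 (adjusted p 2.07e-11) and 0.06 for RIN (adjusted p 0.206). The 4 green plastid markers summed to 58.64 to 65.09 FPKM in yellow and 120.31 to 125.39 in red at color break, and to 20.53 to 22.2 in yellow and 2.83 to 6.3 in red at maturity. At color break 3 of these 4 were higher in red, but the photosystem gene Psb28 (Solyc09g064500) was lower, at 17.05 FPKM against 27.14 (log2 fold change -0.67, adjusted p 0.00342), and at maturity all 4 were lower in red. The 4 seed oleosin markers summed to 417.52 to 452.42 FPKM in yellow and 697.03 to 745.03 in red at color break, and to 74.36 to 81.11 in yellow and 1.16 to 15.59 in red at maturity. None of these 12 marker genes was at 0 throughout a group. In red at maturity, though, the oleosin genes Solyc02g086490 and Solyc06g034040 were at 0 in replicates 2 and 3. In replicate 1 of that group they stood at 1.66 and 5.44 FPKM. Several of the 12 marker genes differ between the lines or stages as the results below do, and their part in those results was not tested. In whole fruits, fewer cells of a type and less RNA per cell cannot be told apart.

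Levels are given as FPKM (fragments scaled by gene length and by library depth), as the authors deposited them, and differences as log2 fold changes ± standard error from edgeR's quasi-likelihood test on the counts, with Benjamini-Hochberg adjusted p over all 15974 tested genes. A gene is called here when its adjusted p is under 0.05 and its log2 fold change is at least 1 in size. The 2 scales are not the same at red maturity: on log2 FPKM the median of all genes shifted by 0.12 to 0.14 between the lines at maturity and by 0.14 to 0.16 between the stages in red, whereas on the scaled counts it was 0.00 in both. A red maturity FPKM is therefore slightly high beside the fold change printed for it.

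The vitamin C genes were mostly higher, and the vitamin E genes lower, in mature red fruit. At maturity, 4 of the 5 vitamin C genes were higher in red than in yellow fruit (GGP1, GGP2, GME2 and GalLDH) and GME1 was lower, while all 3 vitamin E genes were lower, each at an adjusted p under 0.05. Over all tested genes, 27.1% were higher and 30% lower at that threshold. Of the 8 genes, 1 was called higher (GME2) and 1 called lower (VTE4), beside 3.26% and 7.89% of all genes. The median log2 fold change of the 8 genes was -0.05, beside 0.00 over all genes, since the vitamin C genes (median 0.36) and the vitamin E genes (median -0.58) lay on opposite sides of 0.

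At color break 5 of the 8 genes passed. GME2 and GalLDH were higher in red fruit and GGP1, GME1 and VTE4 lower at an adjusted p under 0.05, and GGP2, VTE1 and VTE2 did not pass. These 2 higher and 3 lower of 8 genes stand beside 21.9% higher and 19.6% lower of all genes. VTE4 was the 1 gene called (lower), and none was called higher, beside 2.08% and 4.12% of all genes. The median over the 8 genes was -0.12.

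Between the stages 7 of the 8 genes passed in red fruit and 4 in yellow fruit. From color break to maturity in red, GGP1, GGP2, GME2 and GalLDH rose and VTE1, VTE2 and VTE4 fell at an adjusted p under 0.05, and GME1 did not pass. The background was 31.5% of all genes rising and 32.8% falling. GGP1 was called higher and no member lower, beside 3.93% and 11.5% of all genes, and the median of the 8 was 0.11. In yellow, GGP1 and GalLDH rose and GME2 and VTE1 fell, with 4 genes not passing, beside 19.2% rising and 20.4% falling of all genes. No member was called in yellow by edgeR in either direction, although 4 had an unadjusted p under 0.05, and DESeq2 called none either; over all genes 1.47% were called higher and 4.88% lower. The median in yellow was -0.06.

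The difference between these stage changes was tested directly, as the change in red minus the change in yellow. It was positive at an adjusted p under 0.05 for GGP1, GGP2 and GME2 and negative for VTE1, VTE2 and VTE4, while GME1 and GalLDH did not pass. Over all genes, 20.9% had a positive and 25.8% a negative difference at that threshold. No member's difference reached a log2 size of 1 with edgeR or with DESeq2 (6 had an unadjusted p under 0.05 with edgeR), beside 3% of all genes called positive and 9.23% called negative. The median over the 8 genes was -0.08. The comparisons between lines and between stages use the same libraries, so their values are set side by side and are not separate evidence.

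**Figure D1:**
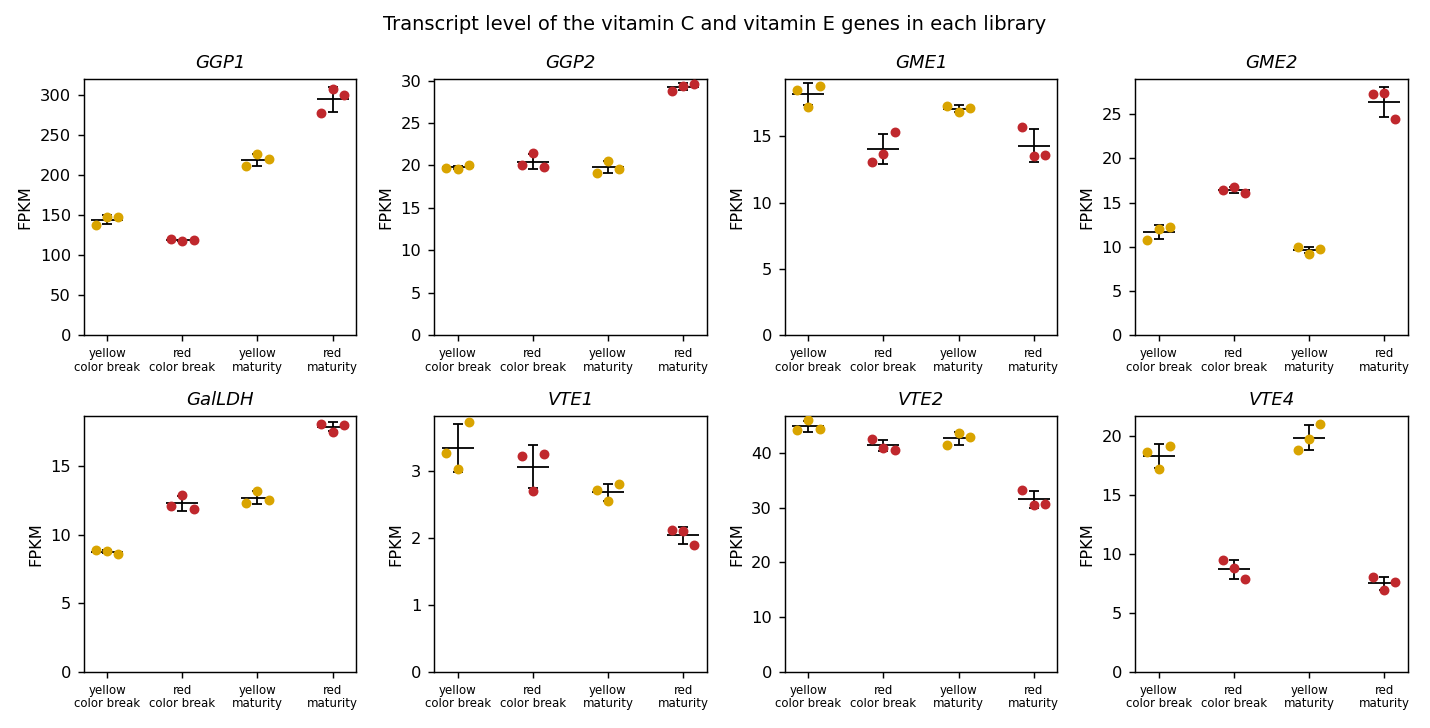
FPKM of each of the 8 genes (vertical axis, from 0, a different scale in each panel) in the 4 groups of line and stage. Points are the 3 libraries of a group, long horizontal lines the group mean and short bars ± 1 SD. Red maturity is the highest group for GGP1, GGP2, GME2 and GalLDH and the lowest for VTE1, VTE2 and VTE4, although for VTE4 its range overlaps that of red at color break.

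Among the vitamin C genes the epimerase is the earliest step covered, and its 2 genes behaved differently between the lines. GME1 stood at 18.52, 17.25 and 18.81 FPKM in yellow fruit and 13.09, 13.69 and 15.32 in red fruit at color break. The maturity values were 17.28, 16.83 and 17.17 in yellow fruit and 15.72, 13.53 and 13.6 in red fruit. All 6 yellow libraries were above all 6 red ones, and within a line the stages overlapped. Its log2 fold change of red against yellow was -0.38 ± 0.08 at color break (adjusted p 0.00153, edgeR) and -0.40 ± 0.08 at maturity (adjusted p 0.000682). The stage change was -0.11 ± 0.08 in yellow (adjusted p 0.275) and -0.13 ± 0.08 in red (adjusted p 0.155), and the difference between them was -0.02 ± 0.11 (adjusted p 0.9). In red the stage value passed at adjusted p 0.0118 without replicate 1 of red at maturity, where it was -0.22, and it took the opposite sign on the FPKM scale, at 0.02 and 0.03 with pseudocounts of 1 and 0.1.

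GME2 ran the other way, with the largest fold change between the lines of the 5 vitamin C genes. It stood at 10.82, 12 and 12.19 FPKM in yellow fruit and 16.43, 16.73 and 16.1 in red fruit at color break. At maturity its level was 9.96, 9.22 and 9.71 in yellow fruit and 27.25, 27.42 and 24.42 in red fruit. No groups overlapped, and the order from the top was red at maturity, red at color break, yellow at color break, yellow at maturity. Red fruit exceeded yellow by 0.49 ± 0.06 in log2 fold change at color break (1.41-fold, adjusted p 1.63e-05) and by 1.32 ± 0.06 at maturity (2.49-fold, adjusted p 4.83e-10, edgeR). Between the stages GME2 fell in yellow, with a log2 fold change of -0.30 ± 0.06 (adjusted p 0.00132), and rose in red, with 0.52 ± 0.06 (adjusted p 2.85e-06). These opposite changes differed by 0.82 ± 0.08 (adjusted p 3.04e-06), the highest value of the difference among the 8 genes.

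GGP1 had the highest FPKM of the 8 genes in every library. It stood at 137.31, 147.93 and 146.95 FPKM in yellow fruit and 119.43, 117.92 and 118.5 in red fruit at color break. At maturity it stood at 210.89, 225.59 and 219.59 in yellow fruit and 276.83, 306.79 and 300.15 in red fruit. The 4 groups did not overlap, and the lines changed places: red was the lower line at color break and the higher one at maturity. The log2 fold change of red against yellow was -0.28 ± 0.04 at color break (1.21-fold lower, adjusted p 5.43e-05, edgeR) and 0.29 ± 0.04 at maturity (1.22-fold higher, adjusted p 2.2e-05). GGP1 rose with maturity in both lines, by 0.58 ± 0.04 in yellow (1.5-fold, adjusted p 5.78e-08) and by 1.15 ± 0.04 in red (2.22-fold, adjusted p 1.28e-11). The rise was larger in red by 0.57 ± 0.05 (adjusted p 1.58e-06), and by 0.60 without replicate 1 of red at maturity, the lowest of the 3 libraries.

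GGP2, the second phosphorylase gene, was close to one level everywhere but in mature red fruit. It stood at 19.74, 19.55 and 20.0 FPKM in yellow fruit and 20.08, 21.42 and 19.83 in red fruit at color break, and at 19.15, 20.53 and 19.61 in yellow at maturity. In red at maturity it stood at 28.79, 29.41 and 29.55 FPKM. The first 3 groups overlapped, and the red maturity libraries lay above all 9 others. At maturity the log2 fold change of red against yellow was 0.43 ± 0.04 (1.35-fold, adjusted p 9.54e-07, edgeR), and at color break it was 0.05 ± 0.04 (adjusted p 0.374). Between stages it was 0.36 ± 0.04 in red (adjusted p 3.57e-06) and -0.02 ± 0.04 in yellow (adjusted p 0.706), a difference of 0.38 ± 0.06 (adjusted p 0.000116).

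GalLDH, the gene of the last step, rose with maturity in both lines and was higher in red at both stages. It stood at 8.85, 8.81 and 8.62 FPKM in yellow fruit and 12.11, 12.89 and 11.84 in red fruit at color break. The maturity values were 12.33, 13.2 and 12.51 in yellow fruit and 18.05, 17.47 and 18 in red fruit. Red at maturity lay above all other libraries and yellow at color break below them, while red at color break and yellow at maturity overlapped. The log2 fold change of red against yellow was 0.49 ± 0.05 at color break (1.4-fold, adjusted p 3.03e-06, edgeR) and 0.36 ± 0.05 at maturity (1.28-fold, adjusted p 2.74e-05). The stage change was 0.51 ± 0.05 in yellow (adjusted p 2.02e-06) and 0.38 ± 0.05 in red (adjusted p 1.01e-05). Their difference was -0.13 ± 0.07 and did not pass (adjusted p 0.134).

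Among the vitamin E genes, VTE2, whose enzyme commits homogentisate to tocopherols, had the highest level. It stood at 44.1, 45.94 and 44.4 FPKM in yellow fruit and 42.53, 40.93 and 40.57 in red fruit at color break. At maturity its level was 41.41, 43.66 and 42.91 in yellow fruit and 33.27, 30.51 and 30.68 in red fruit. The red maturity libraries lay below all others, yellow at color break lay above all others, and the remaining groups overlapped. The log2 fold change of red against yellow was -0.58 ± 0.05 at maturity (1.49-fold lower, adjusted p 2.22e-07, edgeR). At color break it was -0.12 ± 0.05 (adjusted p 0.0618), a value that fell on either side of 0.05 with the settings, between 0.0128 and 0.0487 under the 6 settings in which it passed. From color break to maturity VTE2 fell in red by 0.55 ± 0.05 on the log2 scale (adjusted p 1.98e-07), and the change in yellow was -0.09 ± 0.05 (adjusted p 0.134). The difference was -0.46 ± 0.07 (adjusted p 7.9e-05). Without replicate 1 of red at maturity the yellow change was again -0.09 but passed, at adjusted p 0.0428. Of the table's genes, 2 on the opposite strand overlap VTE2, Solyc07g017773 (at most 0.242 FPKM in any library) and Solyc07g017777 (3.247 to 8.867 FPKM). The libraries kept strand per the labels, but whether the counting used it is not given in the sources used here, so reads of the overlapping genes may be mixed.

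VTE1, the cyclase gene, had the lowest level of the 8 in every library, and the largest standard errors. It stood at 3.27, 3.03 and 3.73 FPKM in yellow fruit and 3.23, 2.7 and 3.26 in red fruit at color break. At maturity it stood at 2.71, 2.55 and 2.8 in yellow fruit and 2.12, 2.1 and 1.9 in red fruit. Red at maturity lay below all other libraries. Yellow and red at color break overlapped each other, and red at color break also overlapped yellow at maturity. The log2 fold change of red against yellow was -0.53 ± 0.11 at maturity (1.44-fold lower, adjusted p 0.000865, edgeR) and -0.13 ± 0.11 at color break (adjusted p 0.366). VTE1 fell with maturity in red, with a log2 fold change of -0.74 ± 0.11 (1.67-fold, adjusted p 3.56e-05). In yellow the stage value was -0.34 ± 0.11 (adjusted p 0.0204), but the adjusted p was 0.101 without replicate 3 of yellow at color break and 0.0762 without replicate 2 of yellow at maturity. The larger fall in red was the least secure result of the 8 genes: the difference of -0.40 ± 0.15 passed at adjusted p 0.0407 and did not pass under 12 settings. These were library size alone (-0.31, adjusted p 0.107), no filter on low values (adjusted p 0.0579), limma on log2 FPKM with either pseudocount (adjusted p 0.203 and 0.172), and 8 of the 12 fits that left out a library (adjusted p 0.0549 to 0.0969). VTE1 shares 5220 bases with Solyc08g068580 on the opposite strand, which was measured at 1.903 to 2.638 FPKM, about as high as VTE1 itself, and the same limit on strand holds.

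VTE4, the methyltransferase gene, was the 1 member called between the lines at both stages. It stood at 18.64, 17.2 and 19.16 FPKM in yellow fruit and 9.47, 8.83 and 7.86 in red fruit at color break. The maturity values were 18.86, 19.76 and 21.01 in yellow fruit and 8.05, 6.96 and 7.61 in red fruit. All 6 yellow libraries lay above all 6 red ones, and within a line the stages overlapped. The log2 fold change of red against yellow was -1.07 ± 0.08 at color break (2.1-fold lower, adjusted p 1.54e-07, edgeR) and -1.53 ± 0.08 at maturity (2.9-fold lower, adjusted p 2.19e-09). With limma on log2(FPKM + 1) the color break value was -0.99, just under the call threshold. VTE4 fell with maturity in red, with -0.37 ± 0.08 (adjusted p 0.00131), while in yellow the value was 0.09 ± 0.08 (adjusted p 0.368). The difference was -0.46 ± 0.11 (adjusted p 0.00415).

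**Figure D2:**
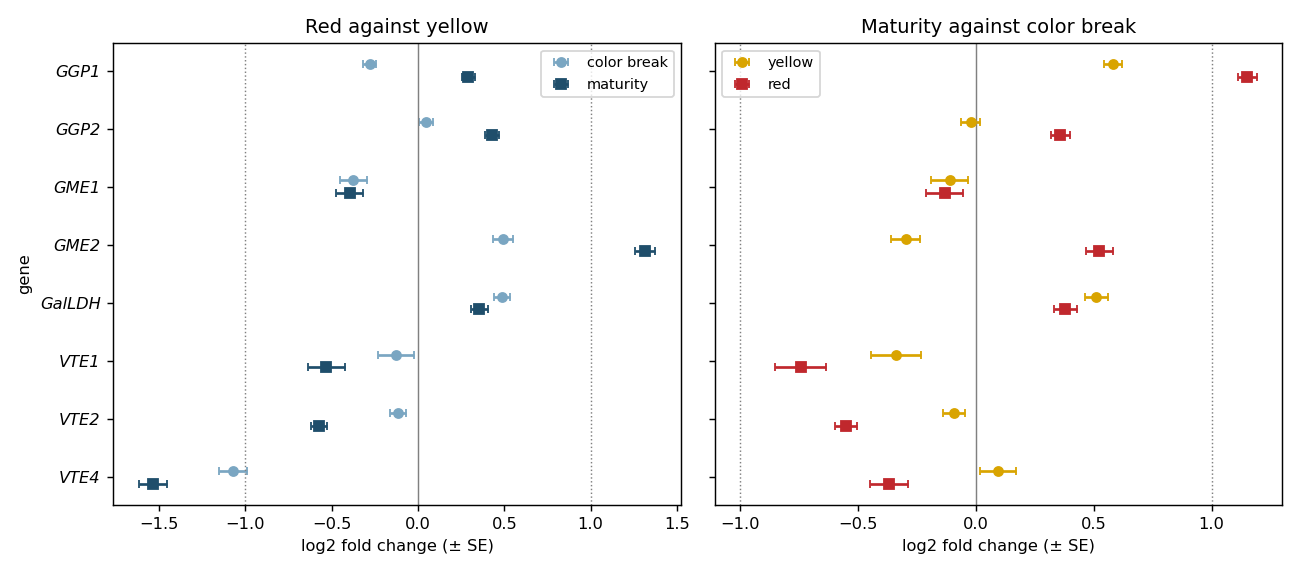
Log2 fold changes ± SE of the 8 genes from edgeR (horizontal axis), red against yellow at each stage (left) and maturity against color break in each line (right). Dotted lines mark a log2 fold change of 1 in either direction, which GME2 at maturity, VTE4 at both stages and GGP1 in red passed.

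Since GME and GGP are each coded by a pair of genes, the share of each second gene in the pair's summed FPKM was followed. GME2 made up 36.87%, 41.02% and 39.32% of the epimerase FPKM in yellow fruit and 55.66%, 55.0% and 51.24% in red fruit at color break. At maturity its share was 36.55%, 35.39% and 36.11% in yellow fruit and 63.42%, 66.96% and 64.23% in red fruit. GME1 was thus the larger of the pair in all 6 yellow libraries and GME2 in all 6 red ones. Averaged over the stages the GME2 share was 21.9 percentage points higher in red (14.9 points at color break and 28.9 at maturity). An exact two-sided permutation test of library labels within the stages gave p = 0.005, the smallest its 400 arrangements can give, and 0.0067 after Benjamini-Hochberg adjustment over the 4 share tests. Between the stages the share moved by 10.9 points in red and by -3.05 points in yellow, which averaged to 3.92 points (exact permutation p = 0.135, adjusted 0.135). The summed epimerase FPKM was 29.25 to 31.01 in yellow and 29.51 to 31.41 in red at color break, where the lines overlapped, and 26.05 to 27.24 in yellow and 38.02 to 42.97 in red at maturity.

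GGP2 was the minor gene of the phosphorylase pair in all 12 libraries. Its share was 12.57%, 11.67% and 11.98% in yellow fruit and 14.39%, 15.37% and 14.33% in red fruit at color break. At maturity it was 8.33%, 8.34% and 8.2% in yellow fruit and 9.42%, 8.75% and 8.96% in red fruit. The share was lower at maturity in each line, with a difference of -3.79 points in yellow, -5.66 points in red and -4.72 points on average (exact two-sided permutation p = 0.005, adjusted 0.0067). It was 1.69 points higher in red than in yellow (2.63 points at color break and 0.756 at maturity, exact permutation p = 0.005, adjusted 0.0067). The summed phosphorylase FPKM was 157.05 to 167.48 in yellow and 138.33 to 139.51 in red at color break, and 230.05 to 246.11 in yellow and 305.61 to 336.21 in red at maturity, with no overlap between any groups. The 2 genes of a pair are similar in sequence, so reads that fit both could be assigned to either, and how the authors' counting treated them is not given in the sources used here.

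**Figure D3:**
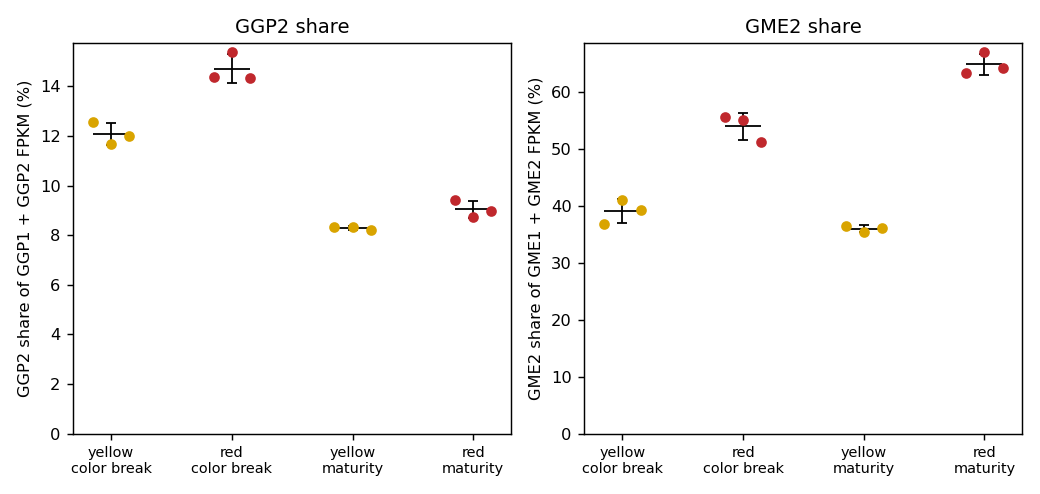
Share of the second gene in the summed FPKM of its pair, in percent (vertical axes, from 0), for GGP2 (left) and GME2 (right) in each library. Points are libraries, long lines group means and short bars ± 1 SD; the GME2 share lies between 51.24% and 66.96% in the red libraries and between 35.39% and 41.02% in the yellow ones.

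Other genes of the pathways were followed with a list matched by identifier and by words of the annotation. It holds 35 genes of the table besides the 8, of which 29 passed the filter: 9 of 10 for vitamin C synthesis, 7 of 7 for its recycling, 4 of 6 for enzymes that use ascorbate, 3 of 6 with ascorbate in their name and 6 of 6 for vitamin E synthesis. At color break 4 were higher and 12 lower in red at an adjusted p under 0.05, and none was called by edgeR or by DESeq2, although 19 had an unadjusted p under 0.05 with edgeR (with no filter on low values, or edgeR's own, 1 gene was called). At maturity 7 were higher and 15 lower, with 1 called lower. From color break to maturity 10 rose and 8 fell in yellow, with none called by edgeR or by DESeq2 (20 had an unadjusted p under 0.05 with edgeR; without a filter, or with edgeR's own, 1 was called), and 10 rose and 10 fell in red, with 2 called lower (1 without replicate 3 of red at color break or replicate 3 of red at maturity). Of all tested genes, 21.9% were higher and 19.6% lower in red at color break, and 27.1% and 30% at maturity. Between the stages 19.2% rose and 20.4% fell in yellow, and 31.5% and 32.8% in red. Called lower were 7.89% in red at maturity and 11.5% between the stages in red. The medians were -0.12, -0.18, 0.02 and 0.03 in these 4 comparisons, beside 0.00 over all genes in each.

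In the recycling group, whose enzymes return oxidised ascorbate to its reduced form, 6 of 7 genes were lower in red at color break and 1 did not pass, and 5 were lower, 1 was higher and 1 did not pass at maturity. Over all genes 19.6% were lower at color break, and 30% were lower and 27.1% higher at maturity. The glutathione reductase gene Solyc09g091840, which supplies the cycle with reduced glutathione, differed most, with -0.59 at color break (adjusted p 1.07e-08, edgeR) and -0.62 at maturity (adjusted p 3e-09). The dehydroascorbate reductase gene Solyc05g054760 was the exception at maturity, at 0.41 (adjusted p 2.63e-05), and it rose with maturity in both lines, by 0.53 in yellow (adjusted p 5.05e-06) and by 0.81 in red (adjusted p 1.8e-08). The monodehydroascorbate reductase gene with the highest level, Solyc09g009390, was lower in red at color break, at -0.21 (adjusted p 7.8e-05) and had a value of -0.02 at maturity (adjusted p 0.665). In red, 4 of the 7 recycling genes rose with maturity and 1 fell, beside 31.5% and 32.8% of all genes, and in yellow 3 rose and 1 fell, beside 19.2% and 20.4%.

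In vitamin C synthesis the genes around the members moved in both directions. Between the lines 0 of 9 genes were higher and 3 lower in red at color break, and 2 were higher and 3 lower at maturity, beside 21.9% and 19.6% of all genes at color break and 27.1% and 30% at maturity. Solyc11g012410, annotated as the L-galactose-1-phosphate phosphatase that acts just after GGP, stood at a mean of 96.88 ± 0.344 FPKM in yellow fruit and 100.1 ± 2.98 in red fruit at color break, and 101.1 ± 0.746 and 110.6 ± 9.42 at maturity (SD, n = 3). None of its comparisons of groups passed, with adjusted p of 0.54 and 0.924 between the lines and 0.623 and 0.824 between the stages (edgeR). Of the GDP-mannose pyrophosphorylase genes, which make the substrate of GME, Solyc06g051270 had the highest level; it was lower in red at maturity, at -0.45 (adjusted p 1.22e-06), and had a value of 0.11 at color break (adjusted p 0.0612). The phosphomannomutase gene Solyc05g046340, which acts ahead of GDP-mannose and is named for this difference alone, was the 1 synthesis gene with a called difference between the stage changes. It stood at 27.81, 27.76 and 26.45 FPKM in yellow fruit and 19.02, 18.23 and 16.61 in red fruit at color break, and at 23.89, 22.37 and 23.96 in yellow fruit and 33.06, 40.96 and 35.96 in red fruit at maturity. As with GGP1, red was the lower line at color break and the higher one at maturity, with no overlap, and the stage changes differed by 1.11 ± 0.10 (adjusted p 7.66e-07). The other listed phosphomannomutase genes did not share this. Solyc05g048760, with the highest mean level, was lower in red at both stages, at -0.26 (adjusted p 0.00364, edgeR) and -0.18 (adjusted p 0.0216). Its stage changes differed by 0.08 (adjusted p 0.479), and those of the remaining gene by -0.25 (adjusted p 0.151).

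Among the 6 other vitamin E genes, 1 was higher and 2 lower in red at color break, and none was higher and 4 lower at maturity. Over all genes 21.9% were higher and 19.6% lower at color break, and 27.1% and 30% at maturity, so the color break counts lie near the background. The phytol kinase gene Solyc03g071720, whose enzyme returns phytol from chlorophyll to the tocopherol route, stood at 3.71, 3.86 and 3.77 FPKM in yellow fruit and 3.76, 3.54 and 3.98 in red fruit at color break. At maturity its level was 2.83, 3.36 and 3.15 in yellow fruit and 1.75, 1.31 and 1.48 in red fruit. The lines overlapped at color break and separated at maturity, where the log2 fold change was -1.17 ± 0.13 (adjusted p 3.87e-06, edgeR). In red it fell with maturity, with -1.47 ± 0.13 (adjusted p 2.51e-07), and the difference from yellow was -1.16 ± 0.18 (adjusted p 0.000118). On log2 FPKM with limma the value at maturity was not called with either pseudocount. Solyc05g041200, a gene of 4-hydroxyphenylpyruvate dioxygenase, which makes homogentisate, stood at 74.72, 77.29 and 78.03 FPKM in yellow fruit and 102.88, 100.13 and 104.51 in red fruit at color break. At maturity it stood at 86.88, 86.96 and 84.59 in yellow fruit and 54.98, 60.2 and 55.1 in red fruit. Here red was the higher line at color break and the lower one at maturity, again with no overlap. The other listed gene of that enzyme, Solyc07g045050, did not share this pattern. Its red against yellow value was -0.25 at color break (adjusted p 0.000718, edgeR) and -0.06 at maturity (adjusted p 0.329). Its stage changes differed by 0.19 (adjusted p 0.0271). Solyc05g041200 fell with maturity in red by 1.01 ± 0.04 on the log2 scale (adjusted p 4.25e-11), just past the call threshold. The difference between its stage changes was -1.16 ± 0.05 (adjusted p 1.25e-09). With limma on log2(FPKM + 1) no list gene was called between the stages in red, so neither this gene nor the phytol kinase gene was.

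Of the genes that were not called, the geranylgeranyl reductase gene Solyc03g115980, whose enzyme makes phytyl chains, was lower in red at both stages, with -0.28 (adjusted p 0.00188, edgeR) and -0.36 (adjusted p 0.00015). The VTE3 methyltransferase gene with the highest level, Solyc03g005230, had -0.04 at color break (adjusted p 0.476) and -0.23 at maturity (adjusted p 0.000224).

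A further 11 genes carry the enzyme number of a listed step without being on the list, 6 of which passed the filter. They were added after the annotation had been seen and are counted apart. Of the 6, 2 were higher and 1 lower in red at color break and none higher and 4 lower at maturity, and the same background shares apply. From color break to maturity 2 rose and none fell in yellow, and none rose and 4 fell in red. The tyrosine aminotransferase gene Solyc07g053710 was the 1 called between the stages, lower in red, beside 11.5% of all genes. Its value was -1.28 ± 0.20 (adjusted p 5.9e-05, edgeR), at a low mean level of 0.97 FPKM. The ascorbate peroxidase gene Solyc02g083620 was called lower in red at both stages, with -1.53 ± 0.18 (adjusted p 1.58e-05, edgeR) and -1.48 ± 0.18 (adjusted p 9.39e-06). Its levels were low, at 2.72, 2.02 and 2.84 FPKM in yellow fruit and 0.8446, 1.07 and 0.7022 in red fruit at color break. The ascorbate peroxidase gene with the highest level, Solyc09g007270, had a mean of 1050 FPKM over the 12 libraries and was higher in red at color break, at 0.32 (adjusted p 1.28e-06), and lower in red at maturity, at -0.21 (adjusted p 3.71e-05).

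**Figure D4:**
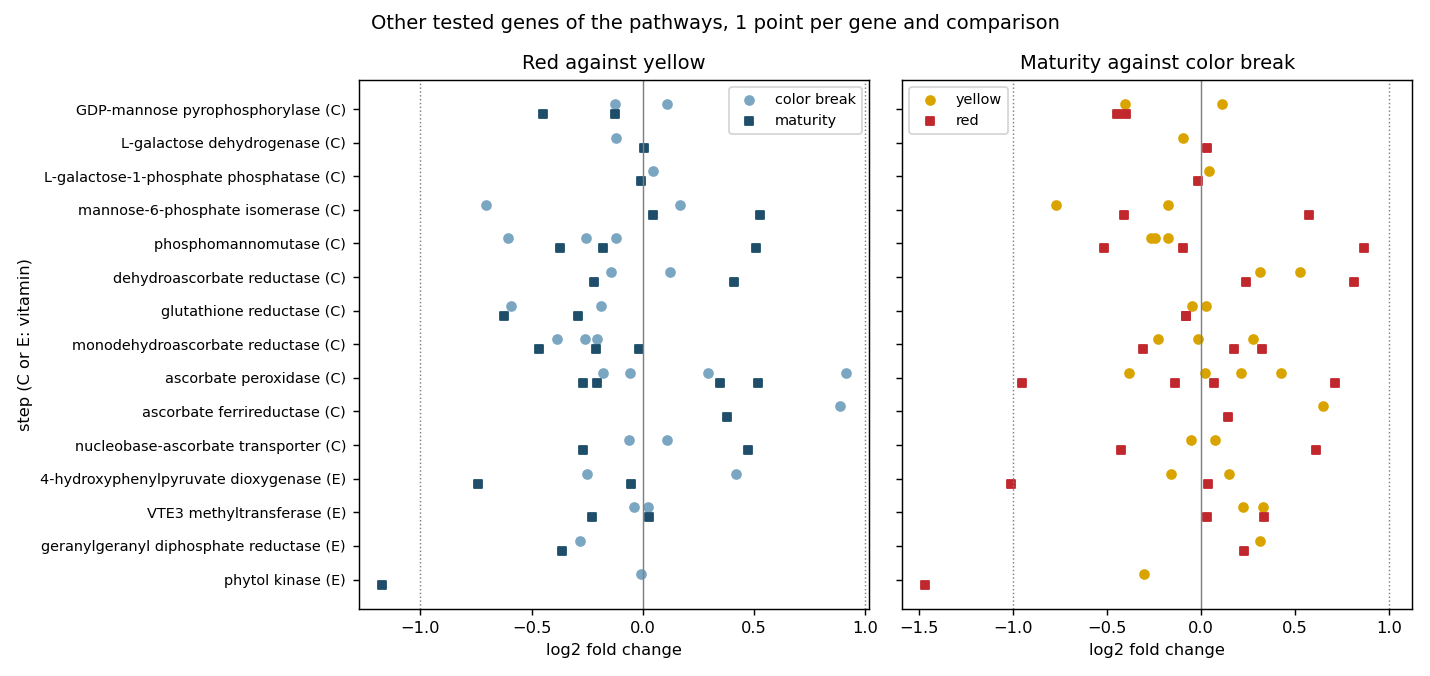
Log2 fold changes from edgeR (horizontal axis) of the 29 tested genes of the list, 1 point per gene and comparison, by step of the pathway (vertical axis, with the vitamin in brackets), between the lines (left) and between the stages (right). Dotted lines mark a log2 fold change of 1 in either direction. Beyond them lie the phytol kinase gene in red at maturity and, between the stages in red, the phytol kinase gene and 1 dioxygenase gene. The dioxygenase gene lies just past the line, at -1.01.

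The genes whose pattern over the 12 libraries was most like that of each member were found by the root mean square difference in log2 CPM. These are counts scaled by library depth and by edgeR's TMM factors, with each gene centred on its own mean. The search covered 10608 tested genes with a mean of at least 5 FPKM, and the 2 closest are named. The difference was smallest for VTE2, at 0.0418, with Solyc08g081570, which codes for 2-C-methyl-D-erythritol 2,4-cyclodiphosphate synthase of the plastid isoprenoid route, against a range of 0.77 for VTE2 itself; Solyc07g065480 followed at 0.05. For GGP2 the most alike gene was Solyc12g035670, annotated as SAC3 family protein B, at 0.0454, before Solyc02g071250 at 0.0491 (range 0.478). For GME2, Solyc03g119670 (no description) was at 0.1159 and the beta-amylase gene Solyc09g091030 at 0.1199, against a range of 1.46. For GGP1 they were Solyc11g071500 at 0.0848 and Solyc09g092680 at 0.085 (range 1.203), and for GalLDH Solyc08g082430 at 0.0688 and Solyc11g008520 at 0.0695 (range 0.941). For GME1 they were Solyc01g057000 at 0.0698 and Solyc06g082120 at 0.0729 (range 0.651), and for VTE1 Solyc05g005460 at 0.0951 and Solyc10g074890 at 0.0962 (range 1.128), and the table gives no description for any of these 8. VTE4 had the widest range of the 8, 1.754, and its most alike genes, Solyc05g005160 at 0.1204 and Solyc03g034190 at 0.1485, were also the least close. These likenesses describe the same 12 libraries and carry no test.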

How the data were processed

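The submitters' processing notes name HISAT2 2.2.1, cutadapt 1.9 and StringTie 2.1.6 beside edgeR and DESeq2, without their roles. Genome build, settings and the use of strand in counting were not given in the sources used here. Per the labels' protocols, poly(A) RNA of whole fruits gave strand-marked, paired-end libraries. The authors deposited 1 table that gives FPKM and the read count of each gene in each library, and its count columns hold whole numbers that were taken as raw. The depth that the authors' deposited FPKM implies was set against the table's count total, both relative to yellow color break replicate 1. On that scale, where this library is 1.0 by definition, the ratio was 0.9388 and 0.9465 in red maturity replicates 2 and 3. In the remaining libraries it was 0.9828 to 0.9928.

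Genes with at least 1 FPKM in at least 3 libraries were tested with edgeR's quasi-likelihood test (edgeR 4.0.16, R 4.3.3, TMM scaling, all 12 libraries, 1 mean per group), and p-values were adjusted over all tested genes. The biological coefficient of variation was 0.0869, and counting error alone is smaller than the spread between libraries. The scripts were tested on simulated data. Shares within gene pairs were tested by exact permutation within strata. Alternatives were RLE and library size scaling, DESeq2 1.42.0, other filters, limma 3.58.1 on log2 FPKM with a pseudocount of 1 or 0.1, only the groups compared, a replicate block and leaving out each library.

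The 8 genes and the lists were chosen with earlier results of these data known. Of the list, Solyc09g011140 has no row, and Solyc04g014800 and Solyc09g018510 were dropped because the table annotates another enzyme. Solyc04g014800, listed at first as an L-galactose-1-phosphate phosphatase gene, met the call rule, higher in red at maturity (log2 fold change 1.16, adjusted p 0.000152, edgeR). Solyc09g018510 met it in no comparison. Named beside the 8 genes are list genes and genes added by enzyme number that were called between groups. Genes with a called difference between stage changes and the 2 genes most like each member are named as well. For some steps the most expressed gene among those not called is named too. No gene is named of mannose-6-phosphate isomerase, L-galactose dehydrogenase, the listed ascorbate peroxidases or those with ascorbate in their name. No sequences were used here.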

Additional observations from a re-analysis of the deposited data

Results flagged for a closer look

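The difference between the lines in the change from color break to maturity (red minus yellow, log2, edgeR) was tested directly. Of the 8 genes, 6 passed at an adjusted p under 0.05, 3 positive and 3 negative. Over all genes 20.9% were positive and 25.8% negative at that threshold. No member reached a log2 size of 1, the size asked of the other pathway genes below. For vitamin C the difference was 0.57 for GGP1 (adjusted p 1.58e-06), which rose in both lines and more in red. For GGP2 it was 0.38 (adjusted p 0.000116), and for GME2, which fell in yellow and rose in red, it was 0.82 (adjusted p 3.04e-06). For vitamin E it was -0.40 for VTE1 (adjusted p 0.0407, not passing under 12 alternatives, among them 0.107 with library size only and 8 of the 12 fits without a library), -0.46 for VTE2 (adjusted p 7.9e-05) and -0.46 for VTE4 (adjusted p 0.00415).

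Among the 29 tested genes of the list, 1 difference was called positive and 2 negative. Of the 6 tested genes added by enzyme number, 1 was called negative. Over all genes 3% were called positive and 9.23% negative, so the list counts lie near the background. The difference was 1.11 for the phosphomannomutase gene Solyc05g046340 (adjusted p 7.66e-07, edgeR). It was -1.16 for the 4-hydroxyphenylpyruvate dioxygenase gene Solyc05g041200 (adjusted p 1.25e-09) and -1.16 for the phytol kinase gene Solyc03g071720 (adjusted p 0.000118). For the tyrosine aminotransferase gene Solyc07g053720, whose enzyme supplies the dioxygenase and which was added by its enzyme number, it was -1.14 (adjusted p 0.00076). That gene stood at 2.29, 3.23 and 2.35 FPKM in yellow fruit and 4.25, 4.77 and 4.25 in red fruit at color break, and at 2.78, 3.79 and 3.84 in yellow fruit and 2.8, 2.96 and 3.01 in red fruit at maturity.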

How the results depend on the processing

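Of 832 member values under the alternatives, 820 kept their direction and side of the call threshold, 1 was weaker and 11 took the opposite sign; the cause was not tested. The weaker one was VTE4 at color break, which left 0 members called with limma on log2(FPKM + 1) against 1. All sign changes were of values that had not passed: GME1 in red between stages (0.0238 and 0.0253 with limma, pseudocounts 1 and 0.1), its difference between lines (0.0767 with library size only, 0.1081 and 0.1138 with limma, and between -0.1094 and 0.0536 when a library was left out, with 0.0173, 0.0284, 0.0177 and 0.0536 on the other side) and that of GalLDH (0.0189 and 0.0083 with limma). Called list genes at color break and in yellow between stages numbered 1 against 0 without a filter or with filterByExpr, and at maturity 0 against 1 with limma. In red between stages they numbered 1 with library size only, 4 without a filter and 0 with limma on log2(FPKM + 1), against 2, and 1 to 2 when a library was left out. The share results kept their side throughout, in counts and without each library. Replicate numbers do not pair the libraries. After each gene's group mean was subtracted from its log2 CPM, the 18 correlations of same-numbered libraries ran from -0.106 to 0.082. On these residuals, 1 of 12 libraries correlated best with its own number among the libraries of other groups. With a replicate block 1 and 2 members were called between the lines at color break and maturity, 0 and 1 between the stages in yellow and red, the same counts as without it. VTE1 had the lowest counts of the 8 genes, 326 to 699 per library.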
